A study of Mus musculus with 14 samples.

Results

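The genes described here are 5 regulators of cell division and of the chromatin of dividing cells, namely Ccnd3, Cdt1, Gmnn, Ezh2 and H2ax. They were chosen by name from the spots whose printed accession maps to these genes, with earlier results of the same arrays known. The values in view at that choice were spot intensity and detection in thymus against brain and the ratio of mutant to control, so the organ contrast below is a description without a test. Each gene had 1 probe spotted once, so the set is 5 of 20160 probes, or 5 of 1380 genes that could be named. Ezh2, Ccnd3 and Gmnn were matched through a RefSeq accession, while H2ax and Cdt1 were matched through an expressed sequence tag listed as a synonym of the gene.

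The mutants were male C57BL/6 mice with the genotype mir-34a minus, aged 17 weeks, and the controls were male mice of the same background and age. Brain RNA came from mutant mice 1 to 3 and thymus RNA from mice 1 to 4, so 3 animals gave both organs. RNA of each mutant organ was run on a pair of spotted cDNA arrays, labelled with Cy3 on one and Cy5 on the other, against control RNA of that organ in the remaining dye. The brain thus has 6 arrays and the thymus 8. All arrays of an organ share that control pool, which lists 4 animals although the labelling protocol names 6, so the pool is 1 control sample and the spread among control animals is not seen. The title and pool of thymus replicate 1 name the thymus while its tissue field names the brain, and it was analysed as thymus. The loss of miR-34a itself was not checked here.

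Progress through the cell division cycle is driven by cyclins, which activate kinases that inactivate the retinoblastoma protein and release E2F transcription factors. E2F factors switch on genes of DNA replication and chromatin duplication in cells about to divide. The thymus of a young adult holds many dividing T-cell precursors, whereas most cells of the adult brain have left the cycle. miR-34a is a microRNA induced by p53 that is known to repress several mRNAs of the cycle in mouse and human cells.

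The microRNA missing in the mutants is shown with its seed, bases 2 to 8, in capitals. The promoters of Ezh2 and Cdt1 are shown because they share an 8-base E2F motif, TTTGGCGC, given in capitals. Sequences are from RefSeq on GRCm38.p6. Each promoter window runs from 250 bases before the gene's start to 50 after it, on the gene's strand, and lies at chr6:47594981-47595280 on the minus strand for Ezh2 and chr8:122567765-122568064 on the plus strand for Cdt1. The mature microRNA lies at chr4:150068473-150068494 on the plus strand.
mmu-miR-34a-5p: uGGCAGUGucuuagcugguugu
Ezh2 promoter: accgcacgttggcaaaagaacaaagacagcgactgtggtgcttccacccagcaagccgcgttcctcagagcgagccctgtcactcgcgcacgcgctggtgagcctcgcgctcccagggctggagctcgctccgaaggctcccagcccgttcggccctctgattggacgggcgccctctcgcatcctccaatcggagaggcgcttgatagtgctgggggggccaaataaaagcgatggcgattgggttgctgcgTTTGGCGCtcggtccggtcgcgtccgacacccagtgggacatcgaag
Cdt1 promoter: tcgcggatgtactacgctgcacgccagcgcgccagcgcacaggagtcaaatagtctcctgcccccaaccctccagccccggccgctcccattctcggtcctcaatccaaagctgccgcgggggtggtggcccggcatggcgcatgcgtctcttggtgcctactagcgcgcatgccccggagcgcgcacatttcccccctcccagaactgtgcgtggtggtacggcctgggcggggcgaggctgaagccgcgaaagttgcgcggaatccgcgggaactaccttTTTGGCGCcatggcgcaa

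The motif occupies bases 4 to 11 after the start of Ezh2 and bases 33 to 40 after the start of Cdt1, in the direction of the gene in both. Searched on both strands, TTTGGCGC was found in 0.514% of 32851 promoter windows of this length. The E2F variants TTTCCCGC, in 1.07% of windows, and TTTCGCGC, in 0.323%, were in none of the 4 windows available for Ezh2, Cdt1 and Ccnd3. The cell cycle homology motif TTTGAA, present in 17.9% of windows, was in none of them, and CCAAT, present in 37.4%, was in windows of Ezh2 and Ccnd3. The 3 CCAAT matches of Ezh2, at bases -90, -64 and -11 from its start, did not overlap its E2F match. H2ax and Gmnn were not searched. These are matches of letters in a window and no measure of binding.

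Signal on these arrays was low. Between 56.3% and 94.4% of probes were detected on a brain array and between 7.96% and 85.4% on a thymus array, where detection means a foreground at least 2 background SDs above the local background median in at least 1 channel. Thymus replicate 8 had the lowest share and thymus replicate 6 the highest. Spots carrying the deposited flag for a poor spot made up 0.812% to 10.7% of brain arrays and 9.32% to 72.4% of thymus arrays, and were left out. The organ of the arrays was checked on marker genes. Of 3 thymocyte markers with a named probe, Satb1, a chromatin organiser of T-cell precursors, averaged 6.73 ± 0.04 (SD, n = 3 mice) in brain and 8.42 ± 0.46 (SD, n = 4) in thymus, and Cd8a, a T-cell coreceptor, averaged 6.19 ± 0.18 and 7.25 ± 0.28, while Cd4 overlapped between the organs. Of 7 neuronal markers, Stmn2, Camk2b and Syp were higher in every brain mouse and Syn1 was higher in every thymus mouse, and the other 3 overlapped. The single fat marker on the array, Lpl, was also higher in every thymus mouse, by 0.42.

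After normalisation, all 5 genes had a higher mean spot intensity in thymus than in brain. The raw median ratio of foreground to background, flagged spots included, did not share this direction throughout. It was lower in thymus in both channels for Gmnn (red 2.22 in brain and 1.80 in thymus) and Cdt1 (red 1.42 and 1.25). For Ezh2 it was higher in thymus in both channels, for Ccnd3 in green only and for H2ax in red only. Intensity is the mean log2 of both channels, quantile normalised over the 14 arrays, with the arrays of a mouse averaged. The difference between organ means was 0.85 for Ccnd3, 0.81 for Ezh2, 0.73 for H2ax, 0.51 for Cdt1 and 0.43 for Gmnn. Every thymus mouse with a value lay above every brain mouse for each of the 5, whereas 19.1% of the 18600 probes with values in at least 2 mice of each organ separated in this direction and 4.7% in the other. The median difference was 0.73 over the 5 genes and 0.16 over all probes, of which the 5th and 95th percentiles were -0.45 and 0.69. Because the genes were chosen with this contrast in view, nothing is read from their count.

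The count depends on how flagged spots were treated. With them kept, the median difference over all probes was 0.018 in place of 0.16. With flagged spots kept, 3 of the 5 genes separated (Ezh2, Ccnd3 and Gmnn), against 9.78% of all probes, and with flagged spots removed before quantile normalisation 3 separated (Ezh2, Ccnd3 and Cdt1), against 6.28%. In that last setting 12.2% of probes separated with brain above thymus. Without normalisation between arrays 3 separated, again Ezh2, Ccnd3 and Cdt1, against 9.84% of all probes. Ezh2 and Ccnd3 separated in all 20 alternative settings in which separation was computed. In 7 of these a mouse was left out, which cannot bring overlap where there was none. Without thymus replicate 1, 6 or 8 in turn all 5 separated, with a median difference of 0.80, 0.61 and 0.73, against 18.9%, 25.4% and 18.2% of all probes. The difference of Gmnn was 0.27 without brain mouse 3 and 0.19 with flagged spots removed before quantile normalisation, and that of Cdt1 was 0.27 with flagged spots kept. In whole organs, fewer cells of a type and less RNA per cell cannot be told apart.

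**Figure D1:**
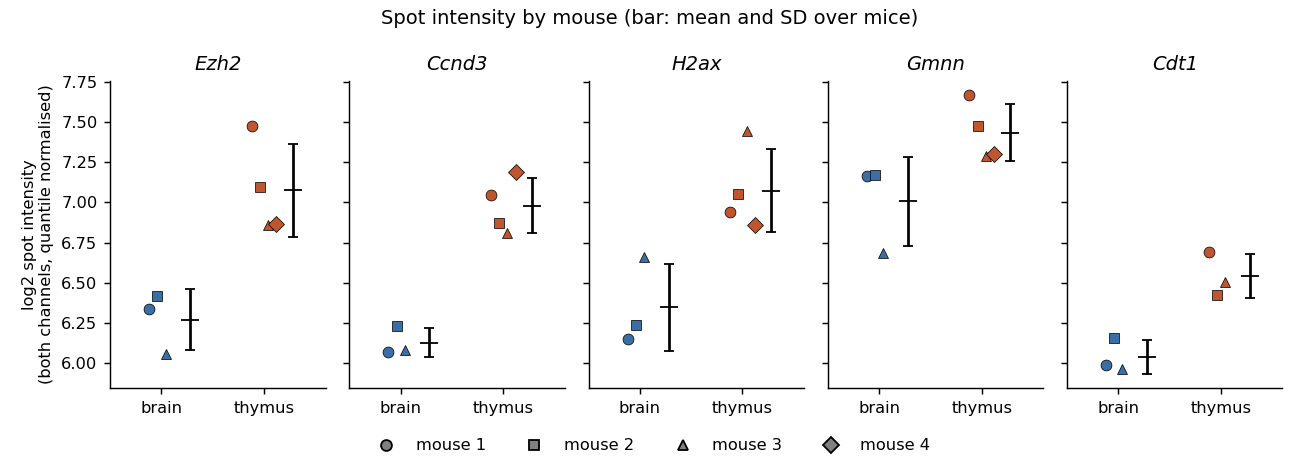
Normalised log2 spot intensity (vertical axis) of each gene in brain (blue) and thymus (orange), with 1 symbol per mouse and a bar for the mean and SD over mice. The thymus symbols lie above the brain symbols in each panel, by 0.43 (Gmnn) to 0.85 (Ccnd3) between the means.

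Ccnd3 encodes cyclin D3, a partner of the kinases that phosphorylate the retinoblastoma protein, and in mice it is required for the expansion of immature T cells. Its log2 intensity was 6.07, 6.23 and 6.08 in the brains of mice 1, 2 and 3, and 7.05, 6.87, 6.81 and 7.19 in the thymi of mice 1 to 4. The means were 6.13 ± 0.09 (SD, n = 3) and 6.98 ± 0.17 (SD, n = 4), and the lowest thymus lay well above the highest brain. Within its array the spot ranged from percentile 14.8 to 41.2 of all probes in brain, with a median of 20.7, and from 60.8 to 93.2 in thymus, with a median of 88.1. It was detected on 3 of 6 brain arrays and 5 of 8 thymus arrays. A percentile ranks a spot against its own array, so an undetected spot can rank high where most probes are dim. The undetected Ccnd3 spots of thymus replicates 5 and 8 stood at percentiles 88.2 and 88.0.

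Cdt1 encodes the factor that loads the replicative helicase onto DNA before replication. Its log2 intensity was 5.99, 6.16 and 5.96 in the 3 brains and 6.69, 6.42 and 6.51 in the thymi of mice 1, 2 and 3. The 3 measured thymi lay above the brains, with means of 6.04 ± 0.11 (SD, n = 3) in brain and 6.54 ± 0.14 (SD, n = 3) in thymus. Mouse 4 gave no thymus value because both of its spots were flagged. Cdt1 was flagged on 4 of 8 thymus arrays and detected on 2 of them, against 3 of 6 brain arrays, so its thymus level rests on few and dim spots. Over all thymus arrays, flagged ones included, its percentile ran from 1.48 to 71.2 with a median of 41.9, and in brain from 7.67 to 33.0 with a median of 13.1. The overlap came from flagged spots, since the 4 unflagged thymus spots started at 40.3.

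Gmnn encodes geminin, the inhibitor that binds the Cdt1 protein and blocks a second round of origin loading until mitosis. Its log2 intensity was 7.17, 7.17 and 6.68 in the brains and 7.67, 7.48, 7.29 and 7.30 in the thymi. The means were 7.01 ± 0.28 (SD, n = 3) and 7.44 ± 0.18 (SD, n = 4), and the gap between the highest brain and the lowest thymus was small beside these SDs. It was detected on 6 of 6 brain arrays and 6 of 8 thymus arrays. Its percentile ran from 65.5 to 93.1 in brain and from 87.8 to 97.1 in thymus, ranges that overlap.

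Ezh2 encodes the catalytic subunit of Polycomb repressive complex PRC2, which methylates histone H3 at silenced genes and is abundant in dividing cells. Its log2 intensity was 6.33, 6.42 and 6.05 in the brains and 7.48, 7.10, 6.86 and 6.87 in the thymi. The means were 6.27 ± 0.19 (SD, n = 3) and 7.08 ± 0.29 (SD, n = 4), without overlap. Detection was on 4 of 6 brain arrays and 7 of 8 thymus arrays. Its percentile ran from 9.33 to 48.0 in brain, with a median of 31.8 that includes 1 flagged spot. In thymus it ran from 62.4 to 95.4, with a median of 88.9, so its rank was higher on every thymus array than on any brain array. The spot of thymus replicate 8, at percentile 85.7, was not detected.

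H2ax encodes the histone H2A variant that is phosphorylated around DNA breaks. Its log2 intensity was 6.15, 6.23 and 6.66 in the brains and 6.94, 7.05, 7.44 and 6.86 in the thymi. The means were 6.35 ± 0.27 (SD, n = 3) and 7.07 ± 0.26 (SD, n = 4), and the value of mouse 3 was the highest in each organ. Its brain arrays gave 6.35 on replicate 5 and 6.96 on replicate 6. In thymus, mice 3 and 4 each rest on 1 array, because the spot on the other was flagged. The spot was detected on 3 of 6 brain arrays and 5 of 8 thymus arrays, and was flagged on 2 thymus arrays. Its percentile ran from 14.3 to 84.8 in brain and from 20.9 to 94.8 in thymus, counting flagged spots. The 6 unflagged thymus spots started at 69.3, and the brain spots other than that of replicate 6 ended at 44.2, so without flagged spots the overlap rests on brain replicate 6.

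**Figure D2:**
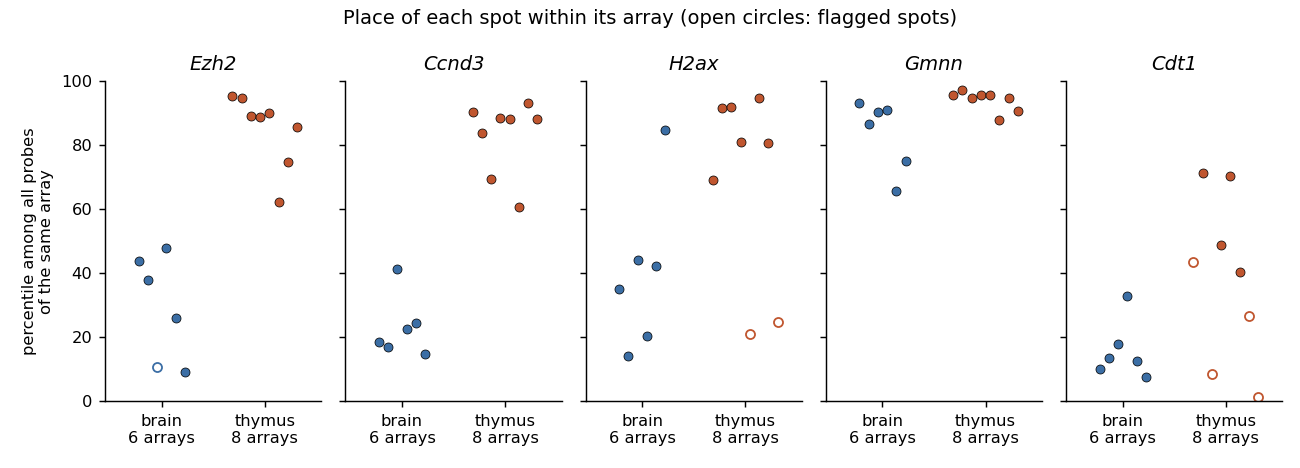
Percentile of each gene's spot among all probes of the same array (vertical axis), with 1 circle per array for 6 brain arrays (blue) and 8 thymus arrays (orange), open where the spot was flagged. The organs are apart on every array for Ccnd3 and Ezh2, whose thymus percentiles start at 60.8 and 62.4, and overlap for Cdt1, Gmnn and H2ax, for Cdt1 through open circles only.

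Detection followed intensity for only some of the genes. Summed over the 5 genes, 19 of 30 brain spots and 25 of 40 thymus spots were detected, while over all probes the mean share of arrays with detection was 73.6% in brain and 36.8% in thymus. Ezh2, Ccnd3 and H2ax were detected on a larger share of thymus than of brain arrays, and Gmnn and Cdt1 on a smaller share.

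The control pools were compared between organs in the same way, since they carry no mutation. In the pool channel alone, Ccnd3 averaged 6.12 ± 0.11 (SD over the arrays of 3 mice) in brain and 6.91 ± 0.26 (SD over 4) in thymus, and Ezh2 averaged 6.31 ± 0.19 and 7.06 ± 0.26. H2ax and Cdt1 were also higher in every thymus value of the pool channel, by 0.78 and 0.32, and Gmnn overlapped, with a difference of 0.34. The SDs of the pool channel are spread between arrays of 1 RNA pool. In the mutant channel Ccnd3, Ezh2, Gmnn and Cdt1 separated, by 0.86, 0.81, 0.52 and 0.74, and H2ax overlapped, with a difference of 0.70. The same separation was seen for 16.9% of all probes in the pool channel and 17.5% in the mutant channel. Ccnd3 and Ezh2 thus separated in control and mutant RNA alike. Cdt1 did so by a narrow margin in the pool channel, where its lowest thymus value was 6.30 and its highest brain value 6.29. Its thymus values of mice 1 and 2 came only from arrays with the mutant in Cy5, so channel and dye cannot be told apart there. The margin of H2ax in the pool channel was also narrow, at 6.73 for its lowest thymus and 6.68 for its highest brain value. Its thymus values of mice 3 and 4 came only from arrays with the mutant in Cy3. Channel and dye cannot be told apart for H2ax either.

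No change of these genes in the mutants was called in either organ. The ratio is the log2 of mutant over pool after loess normalisation within each array, averaged over the dye-swapped arrays of a mouse and set against 0 with limma. In brain all 5 genes could be tested, and 0 of 5 passed an adjusted p of 0.05, where 0 of 17591 probes passed (0%) and 783 had an unadjusted p below it. In thymus 4 of 5 could be tested, and 0 of 4 passed, where 0 of 5422 probes passed (0%) and 273 had an unadjusted p below it. Cdt1 was not tested in thymus because only mouse 3 gave a ratio. Adjusted p in limma ran from 0.845 to 0.912 for the genes in brain and from 0.850 to 0.975 in thymus, with Benjamini-Hochberg adjustment over all probes.

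For Ccnd3 the log2 ratio was 0.09, 0.05 and -0.04 in the brains of mice 1 to 3 and -0.01, 0.20, 0.16 and -0.03 in the thymi of mice 1 to 4. The mice fell on both sides of 0 in both organs. The fitted ratio was 0.04 ± 0.14 (half-width of the 95% interval, n = 3 mice) in brain and 0.08 ± 0.17 (n = 4) in thymus.

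For Cdt1 the log2 ratio was -0.07, -0.21 and -0.03 in the brains and 0.03 in the thymus of mouse 3. All 3 brains were below 0, and the fitted ratio there was -0.10 ± 0.15 (half-width of the 95% interval, n = 3). For Gmnn it was -0.07, -0.36 and 0.09 in the brains and 0.07, 0.04, 0.08 and 0.04 in the thymi. The 4 thymus values of Gmnn all lay above 0 and close together, with a fitted ratio of 0.06 ± 0.15 (n = 4), and the brain values spread widely around -0.12 ± 0.23 (n = 3).

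For Ezh2 the log2 ratio was -0.16 and -0.02 in the brains of mice 1 and 3, and -0.04, 0.26, -0.07 and -0.26 in the thymi. Mouse 2 gave no brain ratio because 1 of its spots was flagged. The fitted ratio was -0.09 ± 0.20 (half-width of the 95% interval, n = 2) in brain and -0.03 ± 0.21 (n = 4) in thymus, where the mice lay on both sides of 0. A single sign in all mice was seen for 2 of 5 genes in brain (Ezh2 and Cdt1), against 30.5% of tested probes, and for 2 of 4 in thymus (H2ax and Gmnn), against 32%.

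For H2ax the log2 ratio was 0.0018, -0.10 and -0.06 in the brains and 0.20 and 0.25 in the thymi of mice 1 and 2. Mice 3 and 4 gave no thymus ratio because the spot was flagged on their arrays with the mutant in Cy5. The fitted ratio was -0.05 ± 0.13 (half-width of the 95% interval, n = 3) in brain and 0.23 ± 0.26 (n = 2) in thymus. With flagged spots kept the thymus ratio was -0.0045, so its sign rests on which spots were used. Without thymus replicate 1 it was 0.38, with an adjusted p of 0.786 in limma, where mouse 1 was kept on its array with the mutant in Cy5, so that the dyes did not balance.

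The difference of the ratio between organs was also tested, on the mouse values of both organs. It passed for 0 of the 4 genes that could be tested and for 0 of 5255 probes (0%), of which 365 had an unadjusted p below 0.05. The difference, thymus minus brain, was 0.28 for H2ax, with a 95% interval from 0.04 to 0.52 and an adjusted p of 0.688 in limma. It was 0.17 ± 0.25 for Gmnn, 0.06 ± 0.33 for Ezh2 and 0.04 ± 0.21 for Ccnd3 (half-widths of the 95% interval). The interval of H2ax lies above 0 without the adjustment, and it rests on 2 thymus mice. With flagged spots kept the H2ax difference was 0.051, with an adjusted p of 0.951 in limma.

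**Figure D3:**
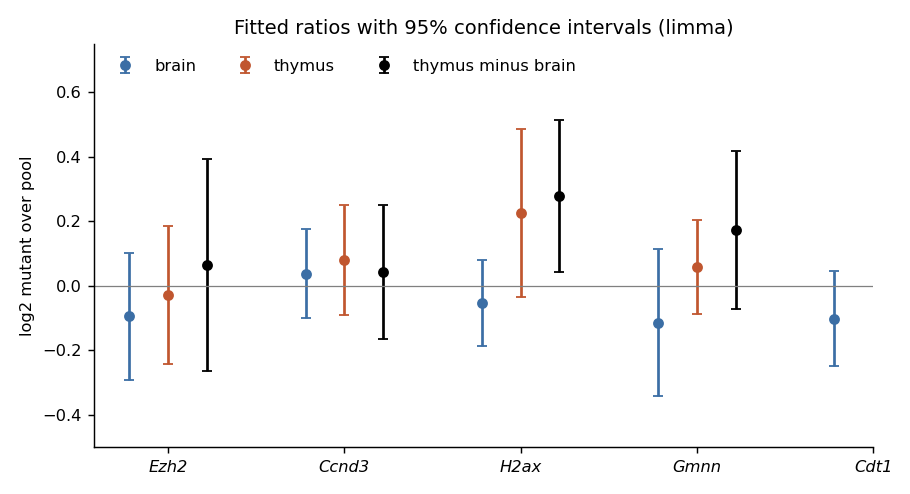
Fitted log2 ratio of mutant over pool (vertical axis) with its 95% confidence interval, in brain (blue), in thymus (orange) and as the difference between them (black). Every organ interval includes 0, Cdt1 has a value in brain only, and the H2ax difference of 0.28 has the single interval that lies above 0.

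The ratios of several spots followed the dye rather than the mouse. In brain the ratio of Ccnd3 was below 0 on all 3 arrays with the mutant in Cy3, at -0.17 ± 0.07 (SD, n = 3), and above 0 on all 3 with it in Cy5, at 0.25 ± 0.06 (SD, n = 3). Gmnn in brain went the other way, at 0.14 ± 0.13 (SD, n = 3) in Cy3 and -0.37 ± 0.35 (SD, n = 3) in Cy5. A red channel higher on every array with a value, as for Ccnd3, was seen for 6.38% of tested brain probes, and a green channel higher on every array, as for Gmnn, for 8.4%.

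In thymus H2ax was below 0 on all 4 arrays with the mutant in Cy3, at -0.40 ± 0.28 (SD, n = 4), and above 0 on both unflagged arrays with it in Cy5, at 0.63 ± 0.18 (SD, n = 2), a pattern of 2.69% of tested thymus probes. Averaging the orientations cancels such an effect where a mouse has both arrays. No tested gene of the 4 was higher in green on every thymus array with a value, a pattern of 6.01% of probes. For Ccnd3 and Gmnn in brain and H2ax in thymus, the gap between the mean ratios of the orientations was wider than the size of the averaged ratio in any mouse.

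**Figure D4:**
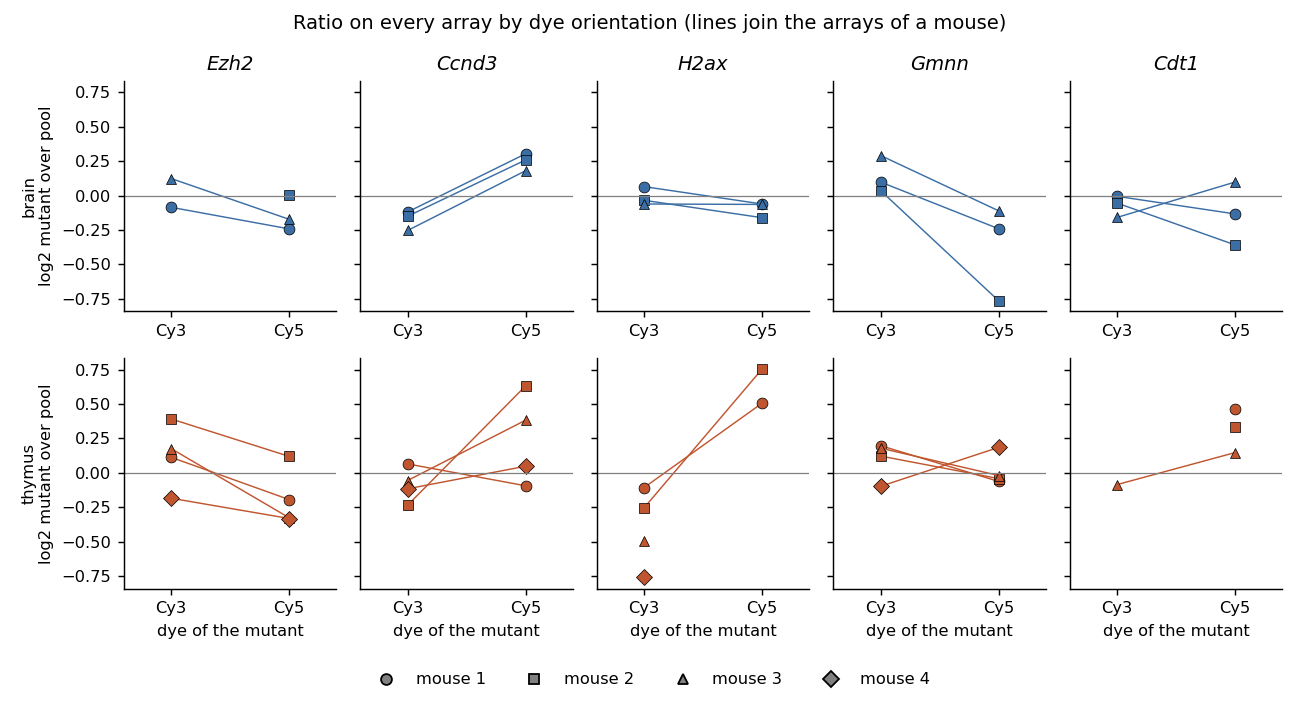
Log2 ratio of mutant over pool on every array with an unflagged spot (vertical axis), by the dye of the mutant (horizontal axis), for brain (top, blue) and thymus (bottom, orange), with lines joining the arrays of a mouse. Ccnd3 in brain and H2ax in thymus lie below 0 in Cy3 and above 0 in Cy5, and Gmnn in brain lies the other way round.

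The intensities of the genes varied together to unequal degrees. Across the 14 arrays Pearson's r was 0.83 between Ezh2 and Gmnn, 0.82 between Ezh2 and Ccnd3, and 0.23 between Gmnn and H2ax. These correlations include flagged spots. Over the arrays on which neither spot was flagged they were 0.88 for Ezh2 and Gmnn (n = 13 arrays), 0.84 for Ezh2 and Ccnd3 (n = 13) and 0.33 for Gmnn and H2ax (n = 12). On those arrays, Ezh2 and Gmnn gave 0.81 within brain (n = 5) and 0.80 within thymus (n = 8). Ezh2 and Ccnd3 gave 0.44 within brain and 0.27 within thymus, and the brain value turned to -0.37 when the flagged Ezh2 spot of brain replicate 3 was included. Gmnn and H2ax gave -0.50 within brain (n = 6) and -0.42 within thymus (n = 6), or -0.0024 in thymus with flagged spots. The within-organ values rest on few arrays, and 1 spot turned the sign of one of them. These points share arrays, normalisation and depth, and pairs of arrays share a mouse.

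Among 916 named probes detected on at least 0.5 of all arrays, the 3 most like each gene were found by the same correlation over the 14 arrays, flagged spots included. Both organs enter this correlation, so it also carries the organ contrast that was in view when the genes were chosen. Satb1 headed the list for both Ezh2, at 0.92, and Ccnd3, at 0.91. It was followed by Cd8a (0.90) and Rmnd5a (0.89) for Ezh2, and by Card10 (0.91) and Rpl27 (0.88) for Ccnd3. Within the 8 thymus arrays, where neither spot was flagged, the r with Satb1 was 0.75 for Ezh2 and 0.64 for Ccnd3, and within the 6 brain arrays it was -0.15 for Ccnd3. On unflagged brain arrays Ezh2 gave 0.15 with Satb1 (n = 5), -0.72 with Cd8a (n = 4) and -0.24 with Rmnd5a (n = 5). Ccnd3 gave -0.10 with Card10 and -0.17 with Rpl27 there (n = 6). Gmnn was most like Cd52 (0.90), which encodes a lymphocyte surface protein, then Pabpc2 (0.86) and Ezh2 (0.83). H2ax was most like Cenph (0.89), a centromere protein gene, then Ddx6 (0.80) and F10 (0.74). Without flagged spots, H2ax and F10 gave 0.93 within brain (n = 6) and -0.81 within thymus (n = 5), while Cenph and Ddx6 stayed above 0 in both organs. Cdt1 was most like Igsf6 (0.89), Afp (0.85) and H2bu2 (0.83).

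Other genes of the cell cycle were less uniform in the organ contrast. Of 256 genes in 7 lists, 20 had a named probe and 18 had intensities in at least 2 mice of each organ. Of these 18, 8 (44.4%) were higher in every thymus mouse and 0 in every brain mouse, against 19.1% and 4.7% of all probes. Their median difference of 0.16 equals that of all probes to this precision. The lists too were chosen with earlier results known.

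Among cyclins and kinase regulators, Cdkn1b, which encodes the cyclin-dependent kinase inhibitor p27, was 0.43 higher in thymus without overlap. Ccnd2, the paralogue of Ccnd3, differed by 0.13, Ccnh by 0.35 and Ccnk by -0.14, all with overlap. In the retinoblastoma and E2F list, Rbl2 (0.66), a relative of the retinoblastoma protein, and E2f4 (0.55), a repressive E2F factor, were higher in every thymus mouse, and Rb1 (0.13) and Mybl2 (-0.10) overlapped. Thus the separated genes of these lists include inhibitors of the cycle.

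In the replication list, Orc6, a subunit of the origin recognition complex, was 0.19 higher without overlap over 2 thymus mice, while Orc3 (0.01), Ddb1 (0.03) and Fen1 (-0.07) overlapped. In the mitosis list, Cdc20, an activator of the anaphase-promoting complex, was 0.58 higher without overlap and Anapc7, a subunit of that complex, differed by 0.03. Nasp, a histone chaperone, was 0.85 higher without overlap, and Rbbp7, a partner of Ezh2 in PRC2, differed by 0.01 with overlap. Of genes acting with H2AX at DNA breaks, Rad50 (0.35) and Baz1b (0.26) were higher in every thymus mouse. No probe was named for a member of the histone list.

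**Figure D5:**
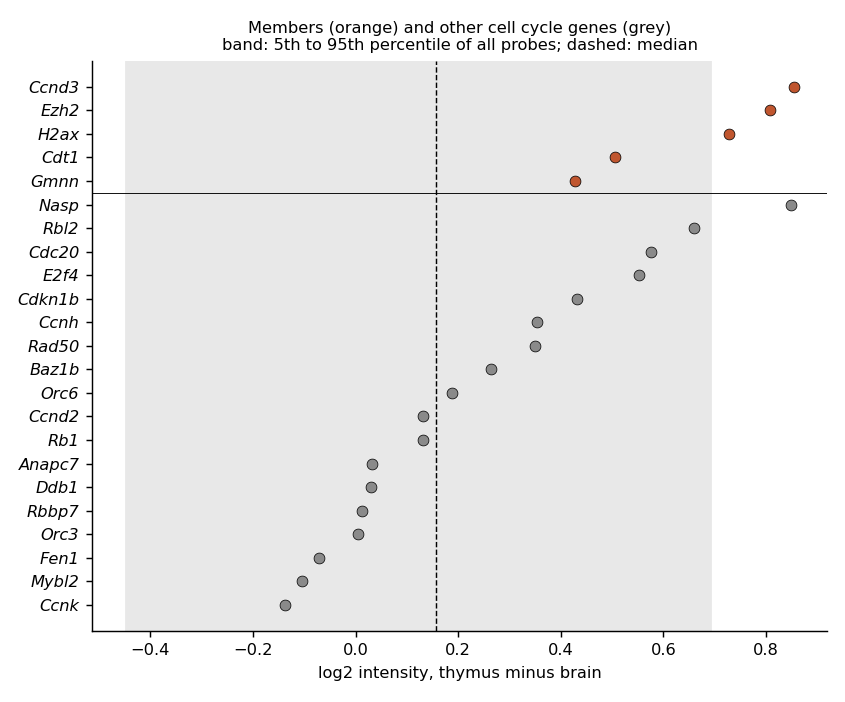
Difference of mean log2 intensity, thymus minus brain (horizontal axis), for the 5 genes (orange, top) and 18 other cell cycle genes (grey), with the 5th to 95th percentile of all probes as a band and their median of 0.16 as a dashed line. Ccnd3, Ezh2, H2ax and Nasp lie beyond the band, and the other genes lie within it.

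In the mutant to pool ratio, 15 of the 20 list genes were tested in brain and 6 in thymus. None was called in limma at an adjusted p of 0.05, against 0% of all probes, with 8 of 15 above 0 in brain and 3 of 6 in thymus.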

How the data were processed

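The members and the gene lists were chosen with earlier results of these data known. Per the file headers, the deposited scanner files hold the intensity of the foreground and the local background of every spot. The scans were at 635 nm (red, taken as Cy5) and 532 nm (green, taken as Cy3). Each spot also has a flag, held as a score, that is -50 for a flagged spot. The authors' deposited value table holds a score that, in 99.7% to 99.9% of rows by array and within 0.01, equals the log2 ratio of background-subtracted medians plus a constant for each array; the origin of the constants is unknown, and it was used only as an alternative. Per the labels' protocols, 20 µg of total RNA was labelled. For the scanner and its software, the sources used here give no name.

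Background correction of the foreground means was by normexp (offset 50), followed by loess within arrays (span 0.3), in limma 3.58.1 under R 4.3.3, with flagged spots left out. Ratios were turned to mutant over pool by the labels' dyes, and the 2 arrays of a mouse were averaged, provided neither spot was missing. Tests in an organ covered the probes detected on at least 0.5 of its arrays and measured in at least 2 mice. Mouse values were fitted against 0 with lmFit and eBayes, with Benjamini-Hochberg adjustment over all tested probes, and organs were compared on 7 mouse values. For intensity, log2 values of both channels were averaged and quantile normalised over all spots of all arrays, flagged spots were then left out, and the available arrays of a mouse were averaged. The number of mice limits the precision, and p-values leave out the spread among controls. The fit was tested on simulated data.

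Probes were named through a RefSeq table of GRCm38.p6, 961 by accession and 492 by a synonym. All 5 members are named. Of other genes, up to 4 of each cell cycle list are named by brightness, and for each member the 3 genes of highest correlation. Mice 1 to 3 gave both organs per the labels, which pairs these samples by animal. For mice 3 and 4 the identifiers in labels and file names differ by exchanged digits, which leaves the grouping of arrays by mouse the same. Where a single array was left out, its mouse was kept on the other array. Deviations of their ratios from the organ means correlated at 0.0279, -0.0446 and -0.0305 over 1747 probes. Alternatives covered background correction, normalisation, flagged spots, dyes, channels, detection, the authors' table, a replicate block, and each mouse and doubtful array left out.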

Additional observations from a re-analysis of the deposited data

Results flagged for a closer look

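Of 27 groups of array or mouse values of the 5 genes that were large enough to check, 2 held a value far from the others of its group, and chance gives about 1 in 20. The normalised log2 intensity of Ccnd3 on brain replicate 3 was 6.34, while the other 5 brain arrays lay between 6.03 and 6.14. The normalised log2 intensity of H2ax on brain replicate 6 was 6.96, while the other 5 lay between 6.02 and 6.37. On that array the green background SD of the H2ax spot was 296, against 26 to 76 on the other brain arrays, and the red one was 36. Its foreground over background there was the highest of the brain arrays in red (2.84) and in green (2.27). The cause was not tested.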

How the results depend on the processing

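Across alternatives, 212 ratio values of the 5 genes were computed, of which 0 passed an adjusted p of 0.05 in limma (the smallest was 0.34) and 19 had the opposite sign. With the mutant in Cy3 only, the ratio was 0.019 for Ezh2, -0.17 for Ccnd3 and 0.14 for Gmnn in brain, 0.12 for Ezh2, -0.085 for Ccnd3 and -0.40 for H2ax in thymus, and the difference was -0.39 for H2ax and -0.041 for Gmnn. With it in Cy5 only, the difference was -0.045 for Ezh2 and -0.0051 for Ccnd3. The Ccnd3 difference was -0.026 with foreground medians and -0.020 with print-tip loess. The thymus ratio of Ezh2 was 0.011 with median centring, 0.0077 with scaling and 0.17 with the authors' table, and that of H2ax -0.0045 with flagged spots kept. Leaving out each mouse gave -0.12 to 0.047 for Ezh2 in thymus (above 0 without mouse 4), -0.030 to 0.14 for its difference (below 0 without thymus mouse 2) and -0.22 to 0.0092 for Gmnn in brain (above 0 without mouse 2). The cause was not tested.

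The count of probes past the threshold was 1 in place of 0 in brain with foreground medians and with Cy5 only, and 1 for the difference with foreground medians and with the authors' table. Leaving out a mouse gave 0 to 1 in brain (1 without mouse 2), 0 to 1 in thymus (1 without mouse 2) and 0 to 0 for the difference. With the mouse as a replicate block the count for the difference was 0, and the difference was 0.08 for Ccnd3 and 0.18 for Gmnn, the same values as without thymus mouse 4. Ezh2 and H2ax could not be fitted there, and the block changed no call.

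None of 105 intensity differences of single genes fell below 0, but the genes were chosen with this contrast in view. For each gene 7 of the settings left out a mouse, and the share over all probes is not given. Nothing is read from this count. The median over the 5 genes was 0.43 without background correction, 1.20 with an offset of 10, 0.47 with flagged spots kept, and 0.61 to 0.78 leaving out each mouse. Within mice 1 to 3 as a replicate block it was 0.78, the same values as without thymus mouse 4, so these are not separate checks. All 5 genes separated without each mouse in turn, against 20.5% to 27% of all probes. Leaving out a mouse cannot bring overlap where there was none, so this outcome was fixed in advance. The count was 3 without normalisation (9.84% of all probes), with flagged spots kept (9.78%), and with them removed before quantile normalisation (6.28%). That last alternative was chosen after seeing the data, as was leaving out thymus replicate 8. Member spots detected numbered 8 of 40 in thymus and 13 of 30 in brain when both channels were required. At 3 background SDs they numbered 15 in thymus and 11 of 30 in brain. The share over all probes under these criteria is not given here, so nothing is read from these counts.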
